A study of Mus musculus with 6 samples.

Results

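Metallothioneins are encoded in the mouse by Mt1, Mt2, Mt3 and Mt4, and these 4 genes were followed in single-cell transcriptomes of esophageal organoids, out of 32285 genes in the deposited tables. The genes were picked by name after Mt3 and Mt4 had been seen to differ between the 2 groups of libraries, so their levels in those groups are given as a description, with no test. Organoids came from esophageal epithelium of C57BL6 mice. Founder cells were sorted as positive for integrin-b1, which marks the basal layer, negative for the dead-cell dye DAPI, and either Cyto-ID Low or Cyto-ID High. Cyto-ID is a dye for autophagic vesicles. Both groups were grown for 15 days in Matrigel with EGF, Noggin, R-Spondin, N-acetyl-L-cysteine and Y27632, dissociated with dispase and trypsin and depleted of dead cells. The groups therefore differ, per the labels, in the Cyto-ID signal of the founders and not in a treatment of the organoids. Each group had 3 libraries, titled F2, M3 and F6, and the labels do not say whether these are separate animals, so p-values measure only the spread between these libraries.

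Metallothioneins are small cysteine-rich proteins that bind zinc and copper through their thiol groups, buffer these metals and react with oxidants. Mt1 and Mt2 are made in most tissues and are induced by zinc and cadmium through the transcription factor MTF1, which binds metal response elements, and by glucocorticoids. Mt3 is best known from the brain. Mt4 is best known from stratified squamous epithelia such as skin, tongue and esophagus, where it has been described in differentiating cells.

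The 4 genes lie side by side on the plus strand of chromosome 8, in the order Mt4, Mt3, Mt2 and Mt1, within 43131 bases (GRCm38, GENCODE vM21). Mt4 spans chr8:94137197-94139031, Mt3 spans chr8:94152607-94154146, Mt2 spans chr8:94172664-94173568 and Mt1 spans chr8:94179082-94180327. Each has 3 exons, and the coding lengths are 186, 204, 183 and 183 bases in that order. No run of 91 bases was shared between an annotated transcript of a member and that of any other gene. The 250 bases before each RefSeq start (GRCm38.p6, plus strand) are shown because metal response elements in such regions carry the known metal response of Mt1 and Mt2. Their coordinates are chr8:94136954-94137203 for Mt4, chr8:94152357-94152606 for Mt3, chr8:94172368-94172617 for Mt2 and chr8:94178839-94179088 for Mt1. Capitals mark each match, on either strand, to the metal response element core, searched as TGCGCNC or TGCACNC.
Mt4: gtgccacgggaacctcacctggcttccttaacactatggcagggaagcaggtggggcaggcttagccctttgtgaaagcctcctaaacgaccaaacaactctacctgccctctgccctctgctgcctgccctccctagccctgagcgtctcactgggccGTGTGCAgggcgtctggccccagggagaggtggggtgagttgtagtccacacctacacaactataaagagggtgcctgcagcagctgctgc
Mt3: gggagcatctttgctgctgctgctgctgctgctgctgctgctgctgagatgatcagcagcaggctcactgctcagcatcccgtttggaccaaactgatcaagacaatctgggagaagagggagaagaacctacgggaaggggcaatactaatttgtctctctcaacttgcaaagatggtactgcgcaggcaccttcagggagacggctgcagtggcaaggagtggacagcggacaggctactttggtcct
Mt2: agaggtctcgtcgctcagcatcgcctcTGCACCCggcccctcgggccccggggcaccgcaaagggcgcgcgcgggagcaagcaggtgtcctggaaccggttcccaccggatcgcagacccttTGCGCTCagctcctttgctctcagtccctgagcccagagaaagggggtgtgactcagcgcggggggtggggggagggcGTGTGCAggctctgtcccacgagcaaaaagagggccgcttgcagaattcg
Mt1: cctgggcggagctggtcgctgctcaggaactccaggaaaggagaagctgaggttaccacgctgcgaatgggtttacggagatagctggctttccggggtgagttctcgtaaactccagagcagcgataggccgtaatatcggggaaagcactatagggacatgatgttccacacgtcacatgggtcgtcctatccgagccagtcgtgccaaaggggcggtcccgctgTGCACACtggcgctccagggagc
Mt2 held 3 matches, Mt1 and Mt4 held 1 each, and Mt3 held 0. Of 32851 RefSeq windows of this length, 21.4% held at least 1 match and 1.26% held at least 3. Over the whole 300-base windows, which run on past the start, the numbers were 4 in Mt2, 3 in Mt1, 1 in Mt3 and 1 in Mt4, with at least 3 in 1.97% of windows. Matches in Mt1, Mt2 and Mt3 thus also lay past the RefSeq start, and the 250 bases before it need not hold the whole promoter. A match describes the letters only and is no measurement of binding.

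The libraries held 153700756 unique molecular identifiers (UMIs, 1 per captured RNA molecule), and 25154 of 26808 barcodes had at least 500 detected genes and were kept. Kept cells numbered 2667 to 5617 per library, with median depths of 1940.5 to 10038 UMIs per cell. The medians were 7789, 6080 and 2716 UMIs in Cyto-ID Low F2, M3 and F6, and 10038, 2357 and 1940.5 in Cyto-ID High. Depth thus did not separate the groups, but Cyto-ID High was deeper for F2 and shallower for M3 and F6. The part of depth in the group differences in level was not tested. Any pair of libraries shared between 0 and 10 barcodes. The squamous label matched the markers: 8 of 8 basal and 6 of 6 suprabasal markers were detected in every library. Summed levels of markers of fibroblasts, endothelium, muscle and glia were at most 4.2 CPM (a gene's UMIs scaled to a common cell total and averaged over cells) per list in any library, and leukocyte markers summed to 8.2 to 22.0 CPM. Of the 5 leukocyte markers, 4 were at 0 in each library except Cyto-ID High F2, where 3 were. Only Cd68 among them was high enough to be tested. Each library was also split by the deposited value of Krt13, a keratin of suprabasal esophageal cells, into Krt13 below 3 and Krt13 of 3 and more. The boundary equals 1909 CPM, between 10.8% and 15.4% of the cells of a library lay within 0.5 of it, and 27.4% to 50.5% lay above it.

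Mt4 and Mt3 differed most between the groups. The mean level of Mt4 over all cells was 30.1, 6.97 and 0.65 CPM in Cyto-ID Low F2, M3 and F6, and 616, 423 and 620 CPM in Cyto-ID High F2, M3 and F6. The groups did not overlap: the highest Cyto-ID Low library was F2 and the lowest Cyto-ID High library was M3. How many of all genes keep the groups apart in this way was not counted, here or for the other members. Of all genes tested, 0.172% were called higher in Cyto-ID High over all cells, which is another measure than overlap. Nothing is read from either for the members because they were chosen with this contrast known. The group means were 12.6 ± 15.5 and 553 ± 113 CPM (SD, n = 3), a ratio of 44.0. On the log2(CPM + 1) scale the difference was 6.31 ± 0.82 (SE, n = 3 against 3). Single Cyto-ID Low libraries set the size of this ratio: it was 145 without Cyto-ID Low F2 and 29.9 without Cyto-ID Low F6, whose level rests on 7 UMIs.

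Mt3 had the same pattern at a far lower level. It was at 1.69, 0.55 and 0 CPM in Cyto-ID Low F2, M3 and F6, and at 35.4, 24.2 and 40.9 CPM in Cyto-ID High F2, M3 and F6. No Mt3 UMI was found in the 2667 cells of Cyto-ID Low F6, which allows a share of cells with a UMI of up to 0.112%. The group means were 0.746 ± 0.859 and 33.5 ± 8.51 CPM (SD, n = 3), with no overlap and a log2 difference of 4.47 ± 0.34 (SE). The ratio of the means was 44.9, and it was 121 without Cyto-ID Low F2 and 29.97 without Cyto-ID Low F6.

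Mt1 and Mt2, the broadly expressed members, differed less. Mt1 was at 403, 498 and 352 CPM in Cyto-ID Low F2, M3 and F6, and at 798, 633 and 1787 CPM in Cyto-ID High F2, M3 and F6. Mt2 was at 126, 146 and 78.3 CPM in Cyto-ID Low and at 373, 167 and 744 CPM in Cyto-ID High, in the same order. For both genes every Cyto-ID High library lay above every Cyto-ID Low library, but the M3 libraries were close: their ratio was 1.27 for Mt1 and 1.14 for Mt2. Cyto-ID High F6 stood highest for both, and the ratio of group means went from 2.57 to 1.71 for Mt1 and from 3.67 to 2.31 for Mt2 without it. The log2 differences were 1.33 ± 0.40 for Mt1 and 1.77 ± 0.48 for Mt2 (SE).

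Within both layers the same order of groups held for all 4 members, with no overlap of mean CPM. How many of all genes show no overlap was not counted. Calls higher in Cyto-ID High made up 0.23% of all genes tested below the boundary and 0.206% above it, which is another measure. In Krt13-below-3 cells Mt4 was at 11.0, 2.53 and 0.51 CPM in Cyto-ID Low F2, M3 and F6, and at 422, 237 and 509 CPM in Cyto-ID High. In Krt13-of-3-and-more cells it was at 56.5, 12.3 and 0.83 CPM in Cyto-ID Low and at 1089, 606 and 916 CPM in Cyto-ID High. The contrast was therefore present in cells with little Krt13 as well as in Krt13-rich cells. The log2 differences below and above the boundary were 6.68 ± 0.62 and 6.28 ± 0.94 for Mt4, and 4.68 ± 0.34 and 3.98 ± 0.40 for Mt3. For Mt2 they were 1.61 ± 0.47 and 1.99 ± 0.41, and for Mt1 1.14 ± 0.42 and 1.69 ± 0.38 (SE).

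**Figure D1:**
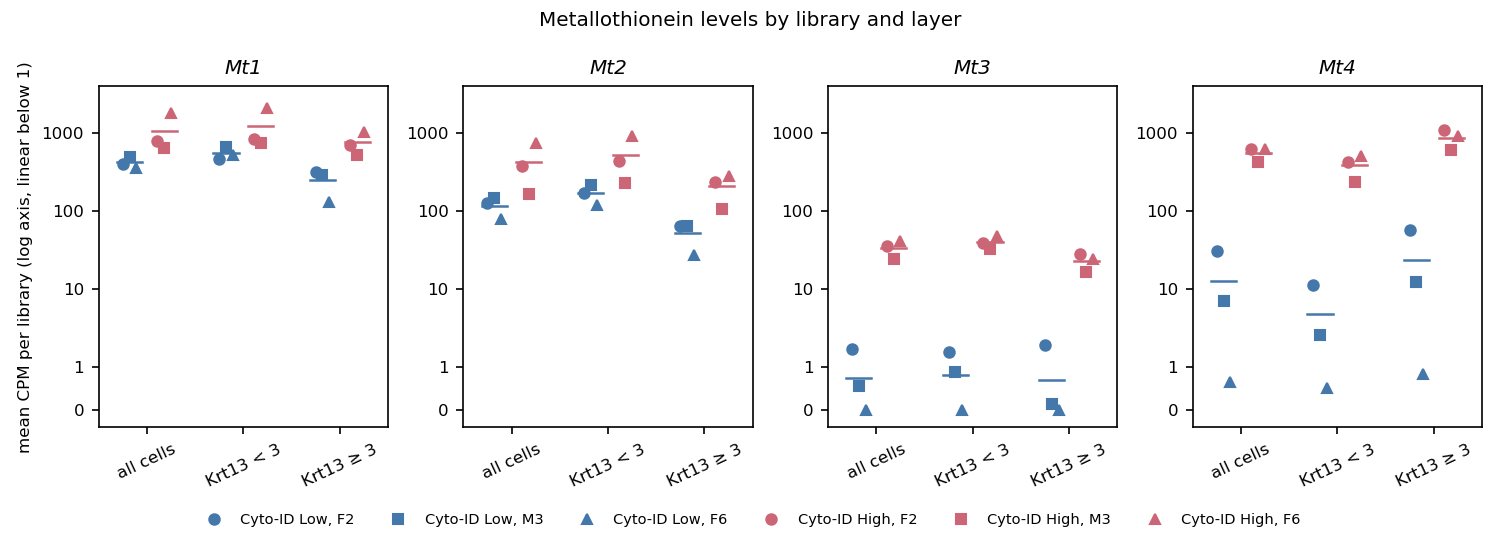
Mean CPM of each metallothionein per library (log axis, linear below 1 CPM), over all cells and in the 2 Krt13 layers; colours mark the groups, symbols the replicate labels and lines the group means of 3 libraries. Over all cells every Cyto-ID High library has at least 24.2 CPM of Mt3 and at least 423 CPM of Mt4. No Cyto-ID Low library passes 1.69 CPM for Mt3 or 30.1 CPM for Mt4.

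Marker lists were summed in the same libraries. The summed level of the simple-epithelium keratins Krt7, Krt8 and Krt18 was 1434 to 2585 CPM in Cyto-ID Low and 321.5 to 1350 CPM in Cyto-ID High, and the M3 libraries were close at 1434 and 1350 CPM. The cycling markers Mki67, Top2a and Birc5 summed to 43.3 to 117 CPM in Cyto-ID Low and 139 to 175 CPM in Cyto-ID High. The limma test over all cells called 0 of 3 genes in each list, with or without the replicate label as a block, and 2 keratins and 3 cycling markers had an unadjusted p under 0.05. Of all genes, 0.172% were called higher without the block and 0.532% with it. Among 6 suprabasal markers 1 passed: Krtdap, which encodes a secreted protein of differentiating keratinocytes, was at 62.0 ± 34.3 and 1047 ± 396 CPM (SD, n = 3), with a log2 difference of 4.26 ± 0.43 (SE, limma adjusted p = 0.0080). With the block 2 passed, since Sbsn (suprabasin) then had an adjusted p of 0.021 against 0.073 without it. The part of these transcripts in the metallothionein levels was not tested.

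The share of cells with a UMI of a member was compared after every cell was thinned to 1000 UMIs, which left out 10 to 115 shallower cells per library. Mt4 was then found in 1.10%, 0.413% and 0.0766% of cells in Cyto-ID Low F2, M3 and F6, and in 18.6%, 14.8% and 13.4% in Cyto-ID High. Without thinning the Cyto-ID Low shares were 3.75%, 1.07% and 0.150%, the Cyto-ID High shares were 40.8%, 20.3% and 16.9%, and the deep F2 libraries stood out. Thinned shares of Mt3 were 0.142%, 0.0359% and 0% in Cyto-ID Low and 2.32%, 1.76% and 2.67% in Cyto-ID High. Mt4 and Mt3 were thus found in a minority of Cyto-ID High cells at this depth, and in few cells of any Cyto-ID Low library.

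Mt1 was found in more cells than Mt4 in every library, whereas Mt2 was not. The thinned share of Mt1 was 24.9%, 31.3% and 25.4% in Cyto-ID Low F2, M3 and F6, and 40.3%, 38.3% and 61.5% in Cyto-ID High. That of Mt2 was 9.86%, 12.7% and 7.81% in Cyto-ID Low, and 22.3%, 13.1% and 37.2% in Cyto-ID High, so in Cyto-ID High M3 it was below the 14.8% of Mt4. In Krt13-rich cells of Cyto-ID High F2 and M3, Mt4 was found in 24.3% and 18.3% of cells and Mt2 in 15.2% and 8.77%. In those of Cyto-ID High F6 the order was the other way, with Mt4 in 14.5% and Mt2 in 17.6%. The thinned shares of Mt1 and Mt2 did not overlap between the groups over all cells, but those of Mt2 were close in M3 (12.7% and 13.1%). The part of all genes whose shares keep the groups apart was not counted. In Krt13-below-3 cells the groups overlapped for Mt2, with 18.1% in Cyto-ID Low M3 and 17.7% in Cyto-ID High M3. Without thinning the shares of both genes overlapped between the groups, over all cells and in both layers.

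Mt4 was concentrated in strongly positive cells. In Cyto-ID High F2, where Mt1 and Mt4 had similar mean levels (798 and 616 CPM), a UMI of Mt1 was found in 79.6% of unthinned cells and one of Mt4 in 40.8%. Cells with a UMI averaged 1002 CPM for Mt1 and 1511 CPM for Mt4, and the 10% of cells with the highest level held 42.7% of all Mt1 CPM and 81.1% of all Mt4 CPM. In Cyto-ID High M3 and F6 these cells held 85.9% and 93.7% of the Mt4 CPM.

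The Cyto-ID High libraries reached similar Mt4 means in different ways. Cyto-ID High F6 had the lowest share of cells with an Mt4 UMI, but those cells averaged 3661 CPM against 2081 CPM in Cyto-ID High M3 and 1511 CPM in F2. A UMI is a larger part of a shallow cell's total, so this order also follows the median depths of 1940.5, 2357 and 10038 UMIs. After thinning to 1000 UMIs the shares of Cyto-ID High M3 and F6 were close (14.8% and 13.4%), and at 2000 UMIs they stood at 20.7% and 22.2%. The last values are not over the same cells, since 2815 of 4483 cells in M3 and 2119 of 4484 in F6 reached 2000 UMIs.

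A few strongly positive cells also carried the Mt4 signal of the Cyto-ID Low libraries. In Cyto-ID Low F2, 133 of 3547 cells had a UMI, and the 41 cells with at least 5 UMIs held 91.5% of the 1623 Mt4 UMIs, with 394 in a single cell. In Cyto-ID Low M3, 60 of 5617 cells had a UMI, and 16 cells with at least 5 UMIs held 77.4% of 323 UMIs. In Cyto-ID Low F6, 4 of 2667 cells had a UMI and none had more than 4. The difference between these libraries, like their level, therefore rests on 4 to 133 cells.

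These libraries hold no cell type known to lack metallothioneins in which free RNA could be read. The part of free RNA in the shares was not tested. The ratio of Mt4 to Mt1 was 0.504, 0.319 and 0.246 in Krt13-below-3 cells of Cyto-ID High F2, M3 and F6, and 1.55, 1.15 and 0.880 in Krt13-of-3-and-more cells. In Cyto-ID Low F2, M3 and F6 the ratio was 0.0236, 0.00379 and 0.000979 below the boundary, and 0.179, 0.0423 and 0.00635 above it. Mt4 thus gained on Mt1 across the boundary in every library of both groups, with only 7 Mt4 UMIs in Cyto-ID Low F6.

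The makeup of the family differed with group and layer. UMIs from the 3′ end do not scale with transcript length, so levels of the 4 genes were set side by side without a length correction. Summed over the members, mean CPM was 561, 651 and 431 in Cyto-ID Low F2, M3 and F6, and 1823, 1247 and 3192 in Cyto-ID High. Mt1 made up 71.9% to 81.7% of it in Cyto-ID Low and 43.8% to 56.0% in Cyto-ID High, whereas Mt4 made up 0.151% to 5.36% and 19.4% to 33.9%.

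Mt4 rose to the largest part of the family in 2 of the 3 Krt13-rich Cyto-ID High profiles. Its share there was 53.0% in F2, 48.3% in M3 and 40.5% in F6, against 34.2%, 41.9% and 46.0% for Mt1. Below the boundary Mt1 was the largest part in all 6 libraries. Mt2 held a similar share in both groups over all cells, with 21.0% ± 2.44 for Cyto-ID Low, against 19.1% ± 5.12 for Cyto-ID High (SD, n = 3). Below the boundary its share was 22.9% ± 4.04 and 23.1% ± 4.08. Above the boundary it was lower in Cyto-ID High, with 16.4% ± 1.53 for Cyto-ID Low and 10.8% ± 2.04 for Cyto-ID High. Mt3 stayed at or below 2.58% in every profile.

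**Figure D2:**
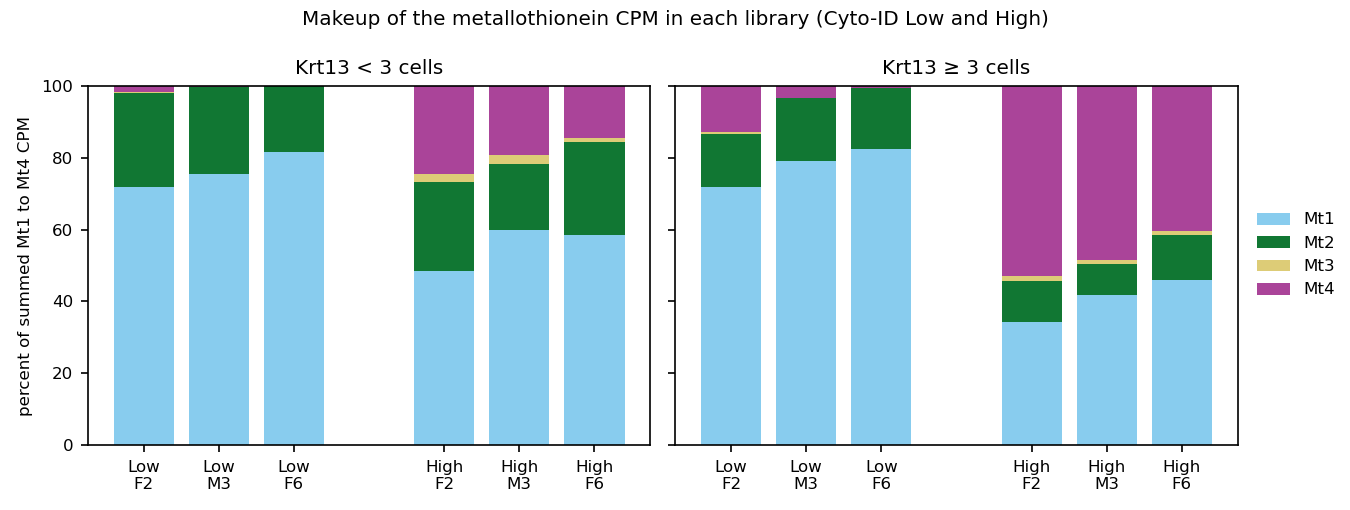
Percent of the summed Mt1 to Mt4 CPM given by each gene, in each of the 6 libraries (bars), for cells with Krt13 below 3 and of 3 and more. Mt4 gives 40.5% to 53.0% of the family CPM in the Krt13-rich Cyto-ID High profiles and at most 12.9% in the Cyto-ID Low ones.

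The layers were compared with limma within libraries, a measure that the choice of genes by founder group did not use. Mt4 rose with Krt13, Mt2 and Mt1 fell, and Mt3 could be followed in Cyto-ID High only. Krt13-rich cells also had more UMIs in 6 of 6 libraries (medians of 2153 to 11416 against 1861 to 9645) and a lower mitochondrial share of UMIs in 6 of 6 (medians of 1.01% to 1.91% against 1.99% to 2.79%). The part of these in the layer differences was not tested. Mt4 was higher in Krt13-of-3-and-more cells in 6 of 6 libraries, 5.13, 4.88 and 1.61 times in Cyto-ID Low F2, M3 and F6, and 2.58, 2.56 and 1.80 times in Cyto-ID High. The ratio of Cyto-ID Low F6 rests on 7 UMIs. The log2 difference was 1.69 ± 0.22 (SE, limma adjusted p = 3e-05).

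Mt2 was lower above the boundary in 6 of 6 libraries, at 0.378, 0.303 and 0.229 of its lower-layer level in Cyto-ID Low and 0.541, 0.466 and 0.306 in Cyto-ID High. Its log2 difference was -1.05 ± 0.13 (SE, limma adjusted p = 1.7e-05). Mt1 was lower in 6 of 6 libraries as well, at 0.675, 0.438 and 0.248 in Cyto-ID Low and 0.840, 0.708 and 0.503 in Cyto-ID High. Its log2 difference was -0.49 ± 0.17 (SE, limma adjusted p = 0.026), and this call was lost without Cyto-ID Low M3, Cyto-ID Low F6 or Cyto-ID High F6 (adjusted p 0.061, 0.076 and 0.076).

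Mt3 was lower above the boundary in 3 of 3 Cyto-ID High libraries, at 0.714, 0.517 and 0.503 of the lower-layer level, and had 59, 18 and 0 UMIs in Cyto-ID Low F2, M3 and F6, too few to follow. It entered the fit through Cyto-ID High, and no test of its layers over both groups is read here. Calls were common in this comparison: of all genes tested, 31.3% were higher and 28.5% lower in Krt13-rich cells, so 1 member higher and 2 lower is read against that background.

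The layers also differed in scale. Without the trimmed-mean scaling used here, the median of all genes moved from 0 to -0.37 on the log2 scale and the calls split into 1821 higher and 6960 lower instead of 3797 and 3464. Without that scaling the differences were 1.34 for Mt4, -1.48 for Mt2 and -0.92 for Mt1. Relative to the shifted median, the values were 1.71, -1.11 and -0.55.

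The size of the layer difference was compared between the groups as an interaction, and without the replicate label as a block none of Mt1, Mt2 and Mt4 passed. Mt3 was not compared, for want of UMIs in Cyto-ID Low. The layer difference in Cyto-ID High minus that in Cyto-ID Low was 0.54 ± 0.30 for Mt1, 0.37 ± 0.23 for Mt2 and -0.29 ± 0.42 for Mt4 (SE), the last with 7 Mt4 UMIs in Cyto-ID Low F6. The limma adjusted p values were 0.56, 0.61 and 0.84, and none of the unadjusted values was under 0.05. The 95% intervals ran from -0.09 to 1.18, -0.12 to 0.86 and -1.19 to 0.61. Calls were rare here, at 0.231% of all genes tested. With the replicate label as a block, a fit chosen after seeing the data, Mt1 passed (0.54 ± 0.11, SE, limma adjusted p = 0.010): its fall across the boundary was smaller in Cyto-ID High. Mt2 and Mt4 did not pass with the block (limma adjusted p = 0.067 and 0.54), and 2.28% of all genes were called.

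Shares of cells gave the same directions as the levels, but they carry no trimmed-mean scaling. Without that scaling the median layer difference in level of all genes was -0.37 on the log2 scale. How many of all genes fell in share in 6 of 6 libraries was not counted. The falls of Mt1 and Mt2 are therefore not set against those of other genes. With cells thinned to 1000 UMIs, the mean share across libraries went from 44.7% below the boundary to 24.9% above it for Mt1, lower in 6 of 6 libraries (-19.8 ± 7.49 percentage points, SD). For Mt2 it went from 22.0% to 9.01%, also lower in 6 of 6 (-13.0 ± 7.01). For Mt4 it went from 6.88% to 9.93%, higher in 6 of 6 (3.06 ± 3.58), but Cyto-ID Low F6 had 1 positive cell in each layer and is higher only by its smaller number of Krt13-rich cells. Two-sided exact sign-flip permutation tests over the 6 libraries gave p = 0.03125 for Mt1 and Mt2, the smallest value that 6 pairs allow. For Mt4 the value was the same with Cyto-ID Low F6 and 0.0625 without it, the smallest that 5 pairs allow. Mt3 was not tested, since its Cyto-ID Low shares rest on 0 to 4 cells per layer. In Cyto-ID High its share was lower above the boundary in 3 of 3 libraries, at 2.44% and 2.05% in F2, 2.25% and 1.30% in M3, and 3.09% and 1.58% in F6. The 3 tests are unadjusted and treat the 6 libraries as independent, although same-labelled libraries deviated together. The Mt4 result changed with thinning and boundary. The exact permutation p was 0.125 with cells thinned to 2000 UMIs, which leaves out more cells, with a higher share in 4 of 6 libraries, and it was 0.0625 with a Krt13 boundary of 2. Without thinning the share was higher in 6 of 6 (exact permutation p = 0.03125).

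Finer steps of Krt13 showed where the genes turned. In Cyto-ID High, Mt4 was at 314 ± 137 CPM in cells without a Krt13 UMI, 721 ± 369 CPM at Krt13 values of 3 to 4 and 1430 ± 1020 CPM at 5 and more (SD, n = 3). The libraries differed: from 3 to 4 up to 5 and more, Mt4 went from 767 to 2598 CPM in F2 and from 331 to 979 CPM in M3, but from 1065 to 714 CPM in F6. Mt1 was at 1206 ± 753, 978 ± 488 and 496 ± 144 CPM in the same steps, and Mt2 at 515 ± 365, 305 ± 158 and 90.1 ± 54.8 CPM. Mt3 was at 35.9 ± 12.5, 27.4 ± 7.04 and 13.3 ± 9.55 CPM.

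In Cyto-ID Low, Mt1 was at 581 ± 172 CPM in cells without Krt13 and 104 ± 63.6 CPM at 5 and more, and Mt2 at 176 ± 74.5 and 18.8 ± 15.7 CPM. Mt4 was at 2.25 ± 2.25 and 82.3 ± 119 CPM, and the latter mean was carried by Cyto-ID Low F2 at 219 CPM, with M3 at 25.5 and F6 at 2.19 CPM. The share of Mt4-positive cells did not climb in every library: in Cyto-ID High F6 it was 12.02% without a Krt13 UMI and 10.3% at 5 and more, against 13.2% and 36.9% in F2 and 10.5% and 23.9% in M3. Krt13 itself was read from unthinned cells. Cells without a Krt13 UMI made up 18.2%, 22.4% and 49.0% of Cyto-ID High F2, M3 and F6. Their median depths were 8563, 1843 and 1790 UMIs. The part of depth in the differences between libraries was not tested.

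**Figure D3:**
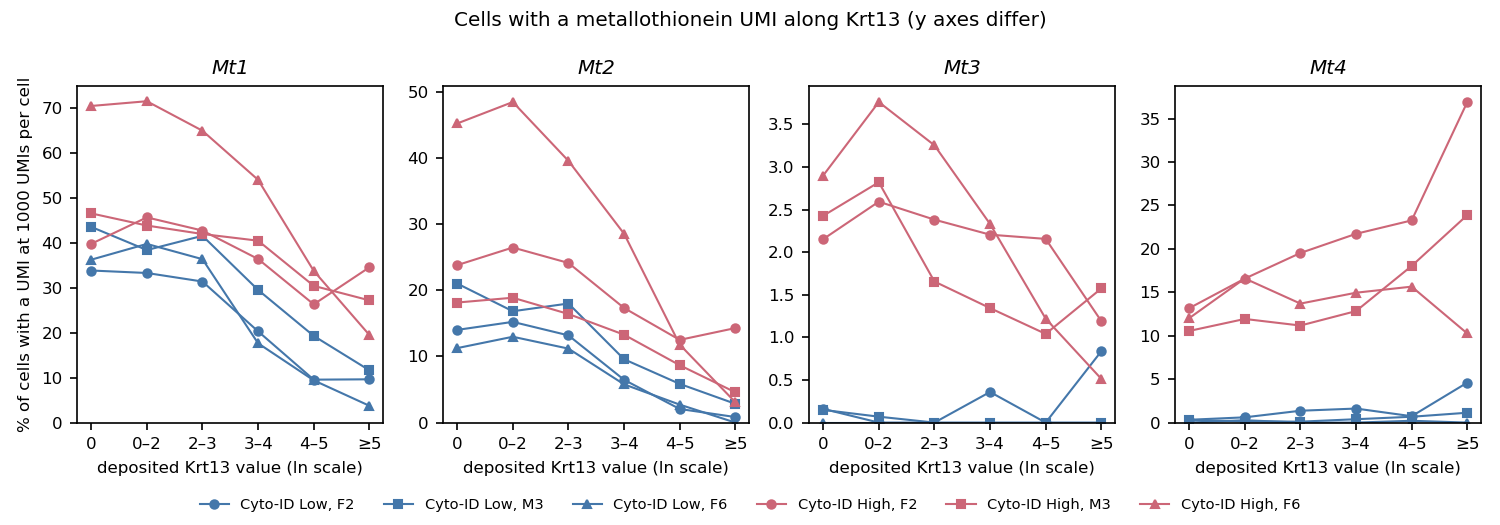
Percent of cells with a UMI of each metallothionein after thinning to 1000 UMIs, against the deposited Krt13 value in 6 steps, 1 line per library (blue Cyto-ID Low, red Cyto-ID High; y axes differ between panels). Mt1 and Mt2 are lower at the top step than without Krt13 in every library, although Cyto-ID High F2 turns up at the last step (Mt1 from 26.3% to 34.5%, Mt2 from 12.5% to 14.3%), while the Mt4 share at the top step reaches 36.9% in Cyto-ID High F2 and 10.3% in Cyto-ID High F6.

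Among Krt13-below-3 cells, those with a UMI of the cycling genes Mki67, Top2a or Birc5 after thinning were compared with the others. Mt1 was higher in cycling cells in 6 of 6 libraries, with a mean log2 difference of 0.28, and Mt2 in 6 of 6, with 0.49 (two-sided exact sign-flip permutation p = 0.03125 each, the smallest possible). In Cyto-ID High F2 the Mt2 level was 730 CPM in 335 cycling cells and 394 CPM in 2744 others, the widest gap on the log2 scale, and in Cyto-ID High M3 it was 254 and 218 CPM, the narrowest on that scale. Mt3 and Mt4 had too few UMIs in Cyto-ID Low for this test. In Cyto-ID High F2, M3 and F6 the log2 differences were 0.62, -1.27 and -0.22 for Mt3, and 0.0069, -0.79 and -0.59 for Mt4. The p-values are unadjusted, and again treat the libraries as independent. These levels carry no trimmed-mean scaling, and how many of all genes rise in cycling cells was not counted. The differences of Mt1 and Mt2 are therefore not set against those of other genes. The Mt2 result had an exact permutation p of 0.0625 where cycling cells needed 2 of the 3 genes.

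Members were found together in cells more often than the product of their single shares, in every pair and layer of the Cyto-ID High libraries. Pairs of other genes were not compared in this way, so the excess is not set against a background. Relative to the product of the shares, the excess was greatest for Mt3 and Mt4, but this ratio is capped by the larger single share, so pairs with the widespread Mt1 cannot reach such values. By Pearson's r below the boundary, Mt3 with Mt4 (0.459 in F2 and 0.328 in F6) came after Mt1 with Mt2 (0.728 and 0.567), Mt2 with Mt4 (0.597 and 0.413) and Mt1 with Mt4 (0.523 and 0.376). In M3 Mt3 with Mt4 came first, at 0.304 against 0.290, 0.268 and 0.283 for these pairs. Below the boundary the ratio of the joint share to the product was 4.09, 4.90 and 4.72 in Cyto-ID High F2, M3 and F6, on 50, 26 and 60 cells. Of the Mt3-positive cells there, 66.7%, 54.2% and 61.2% also had an Mt4 UMI, against 15.0%, 10.1% and 11.4% of cells without Mt3. Above the boundary the ratios were 3.32, 3.96 and 5.82, on 21, 21 and 16 cells. Mt3-positive cells below the boundary held Mt1 in 82.7%, 70.8% and 94.9% and Mt2 in 76.0%, 47.9% and 82.7% of cases. Of the Mt4-positive cells, 5.13% to 14.6% held Mt3 at this depth.

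For Mt1 and Mt4 the ratio was 1.37 to 1.68 below the boundary and 1.85 to 2.07 above it. For Mt1 and Mt2 it was 1.23 to 1.59 below and 1.84 to 2.26 above in Cyto-ID High, and 1.26 to 1.55 and 2.32 to 7.06 in Cyto-ID Low. The value of 7.06, in Cyto-ID Low F6, rests on 24 cells. The cap on these ratios moves with the Mt1 share, so their sizes are not compared between layers or groups. Pearson's r of the deposited values across cells, which share a library and its depth range, was 0.290 to 0.728 for Mt1 and Mt2 and 0.304 to 0.459 for Mt3 and Mt4 in Krt13-below-3 Cyto-ID High cells. In Krt13-of-3-and-more Cyto-ID High cells r was 0.399 to 0.735 for Mt1 and Mt2 and 0.283 to 0.415 for Mt3 and Mt4. At most 2 cells of any Cyto-ID Low profile held both Mt3 and Mt4, too few to compare. Cells with at least 3 members made up 3.75% to 11.5% of Krt13-below-3 cells in Cyto-ID High and at most 0.390% in Cyto-ID Low. Such cells must hold Mt3 or Mt4, the genes first seen to differ between the groups. This contrast thus follows from how the genes were chosen and is no separate result.

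**Figure D4:**
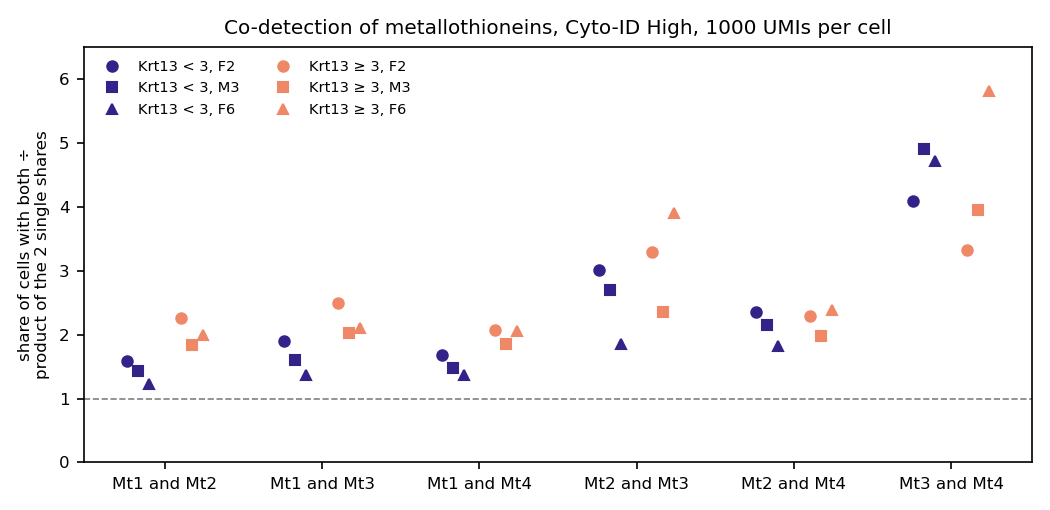
Share of cells with UMIs of both genes divided by the product of the 2 single shares, for the 6 pairs of metallothioneins in the 3 Cyto-ID High libraries (symbols), below and above the Krt13 boundary (colours), with cells thinned to 1000 UMIs; the dashed line marks a ratio of 1. All points lie above 1, and Mt3 with Mt4 runs from 3.32 to 5.82.

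The genes on both sides of the cluster showed whether neighbours shared the contrast. Of the 25 protein-coding genes on each side, 49 of 50 had a row and 30 could be tested over all cells. The nearest neighbours, Bbs2 at 37.8 kb before Mt4 and Nup93 at 34.2 kb after Mt1, did not pass: their log2 differences were 0.35 ± 0.28 and 0.41 ± 0.19 (SE, limma adjusted p = 0.76 and 0.64). Of the 30, 2 passed, both higher in Cyto-ID High, against 0.172% of all genes.

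Capns2, which encodes a small calpain subunit, was at 10.6, 12.03 and 11.5 CPM in Cyto-ID Low F2, M3 and F6, and at 68.5, 94.8 and 63.7 CPM in Cyto-ID High. It lies 1234.8 kb before Mt4 and rose by 2.71 ± 0.23 on the log2 scale (SE, limma adjusted p = 0.0033). It lies inside the span of Lpcat2, which did not pass (-0.27 ± 0.28, adjusted p = 0.82). Ces1h, a carboxylesterase 757.4 kb before Mt4, was at 5.44, 6.47 and 1.09 CPM in Cyto-ID Low and at 45.9, 46.9 and 49.3 CPM in Cyto-ID High. It rose by 3.48 ± 0.41 (SE, limma adjusted p = 0.018), but not past the threshold without Cyto-ID High F2 or Cyto-ID High F6 (adjusted p 0.078 and 0.14), and reads it may share with other Ces1 genes leave its level uncertain. Both also passed in each layer with all libraries. In a check chosen after seeing the data, the limma call above the boundary was lost without Cyto-ID High F6 for Capns2 (adjusted p = 0.054) and without Cyto-ID High F2 or F6 for Ces1h (0.065 and 0.14). Below the boundary Capns2 passed in every such fit, and Ces1h did not without Cyto-ID High F6 (adjusted p = 0.055).

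Mmp2, a matrix metalloproteinase gene 1283.8 kb before Mt4, was at 2.85 ± 2.15 and 14.7 ± 6.81 CPM (SD, n = 3). It passed only with the replicate label as a block (adjusted p = 0.0094 against 0.30 without it), and did so in both layers (0.013 and 0.0019). With the block, 0.532%, 0.639% and 0.664% of all genes were higher over all cells, below and above the boundary. The other 27 neighbours tested differed by -0.77 to 1.10, and none passed with or without the block.

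**Figure D5:**
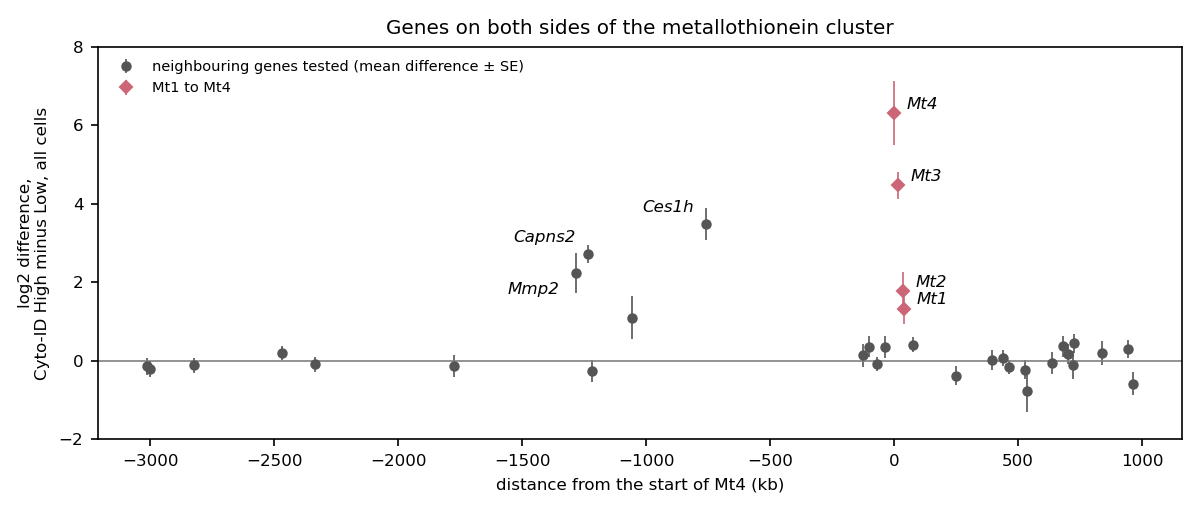
Log2 difference between Cyto-ID High and Cyto-ID Low over all cells (mean ± SE, 3 libraries a group) for the metallothioneins (diamonds) and the 30 tested neighbours (circles), by distance from the start of Mt4 in kb. Capns2, Ces1h and Mmp2, at 2.71, 3.48 and 2.23, stand off among neighbours, while the 5 tested genes nearest to the cluster lie between -0.08 and 0.41.

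No gene of metal handling passed the test between the founder groups. Of 18 tested zinc genes (transporters and Mtf1), 0 were called over all cells or in either layer, with or without the block, and 2 had an unadjusted limma p under 0.05 over all cells. Of all genes, 0.172% were called higher over all cells without the block and 0.532% with it. A count of 0 of 18 therefore does not set these genes apart. Slc30a1, a zinc exporter, was at 3.72 ± 0.118 and 6.48 ± 0.987 CPM (SD, n = 3), with a log2 difference of 0.74 ± 0.18 (SE, limma adjusted p = 0.32). Slc39a4, a zinc importer, had the lowest difference, at -1.08 ± 0.45 (adjusted p = 0.61). Mtf1 itself, chosen after its values were seen, was at 10.5 ± 1.46 and 10.7 ± 1.30 CPM (SD, n = 3).

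None of 8 copper genes was called by limma over all cells, where unadjusted values were under 0.05 for 2. Sod1, the copper- and zinc-dependent superoxide dismutase, was highest at 0.64 ± 0.20 (adjusted p = 0.49), and Atp7a, a copper exporter, lowest at -0.44 ± 0.19 (adjusted p = 0.62). For 7 glucocorticoid targets and 11 genes of dissociation and heat shock limma made 0 calls over all cells, and 0 unadjusted values were under 0.05. Calls higher in Cyto-ID High made up 0.172% of all genes, so 0 calls do not set these lists or the copper genes apart. The list medians were 0.03, 0.14, 0.09 and -4.0e-05 in the order zinc, copper, glucocorticoid and dissociation, beside -0.0023 for all genes.

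Calls between the layers were made after trimmed-mean scaling. On that scale 5 of 19 zinc genes were higher and 4 lower in Krt13-rich cells, and of 8 copper genes 4 were higher and 1 lower. Of those called higher, Slc30a9, Slc39a7, Atox1 and Cox17 had lower mean CPM above the boundary without that scaling. They were at 31.1, 43.2, 520 and 77.0 CPM below it and 26.5, 38.25, 513 and 76.0 CPM above it. The other zinc and copper genes called higher were also higher in unscaled CPM. Over all genes 31.3% were higher and 28.5% lower, so the zinc counts are near the background. Slc30a4 rose by 1.11 ± 0.15 and Slc39a13 changed by -2.09 ± 0.15, while the copper importer Slc31a1 rose by 1.04 ± 0.08 and Sod1 changed by -0.82 ± 0.08 (SE). Of 7 glucocorticoid targets 3 were higher and 2 lower, and of 11 dissociation genes 7 were higher and 1 lower. Medians were 0.09, 0.33, 0.02 and 0.75, beside -0.0015 for all genes.

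Across the 12 profiles of library and layer, Mt1 and Mt2 correlated at r = 0.95 and Mt3 and Mt4 at 0.94. Mt1 correlated with Mt3 at 0.82 and with Mt4 at 0.73, and Mt2 at 0.81 and 0.67. These profiles share libraries in pairs and include the founder contrast with which the genes were chosen, so the values are descriptions. Among 6965 genes averaging 10 CPM or more, those nearest to Mt4 were Gm94, Ces1h, Slc16a6, Krtdap and Cstdc5 (r from 0.93 to 0.97). Those nearest to Mt3 were Ces1h, Klrg2, Tomm5, Gm94 and Igfbp2 (0.90 to 0.95). Those nearest to Mt1 were Aknad1, Snrpd3, Mrpl21, Parp1 and Chchd1 (0.92 to 0.94), and to Mt2 Ndufaf4, Parp1, mt-Nd1, Aknad1 and Snhg16 (0.94 to 0.95).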

How the data were processed

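Droplet 3′ libraries (10x Genomics) were made from dissociated organoids, per the labels' protocols. Cell Ranger 6.0.0, Seurat 4, mm10 and GRCm38 are named in the submitters' processing notes. The authors deposited 1 table per library. Per cell, the deposited table holds the natural log of 1 plus the UMI count scaled to 10000, as read from the values. Undoing this gave whole UMIs for 100% of entries, within 1e-06. The authors' cell filter is not given in the sources used here. Doublets were not called.

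Cells with at least 500 detected genes were kept. UMIs were scaled to CPM in each cell and averaged per library and layer, scaled by trimmed means of M values (30% of ratios and 5% of levels trimmed) and analysed as log2(CPM + 1), which understates changes of low genes. Genes reaching 1 CPM in 3 or more profiles entered limma 3.58.1 (R 4.3.3) with a mean-variance trend and Benjamini-Hochberg adjustment at 0.05. Layer fits had the library as a term. The limma code was tested on simulated data for the all-cell, layer and interaction fits. Shares used cells thinned to 1000 UMIs, and a count of 0 allows 3 counts of the total, covering counting error only. Sign-flip p-values were left unadjusted, although an adjustment over the 4 members had been planned. Planned tests of Mt3 (layers, interaction, shares, cycling) and of Mt4 in cycling cells are not reported, for want of UMIs in Cyto-ID Low; this was decided after seeing the data.

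The replicate labels come from the titles. Deviations from group means correlated between same-labelled libraries at 0.76 (F2), 0.57 (M3) and 0.14 (F6), so by the rule of a correlation over 0.1 in every pair the labels were taken to pair the libraries. Cyto-ID Low F2 and Cyto-ID High F6, with different labels, correlated at 0.17, above the F6 pair, and the other 5 such pairs were below 0. The main founder fits did not use this pairing, and the block is an alternative whose counts are given below. Members and lists were chosen with earlier results of these data known. Lists covered zinc and copper handling, glucocorticoid targets, dissociation and heat shock, cell type markers and 25 neighbours a side. Named genes were all members, list genes past the threshold or with extreme differences (at most 4 a list), neighbours called in any founder contrast, and the 5 genes most like each member.

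Alternatives were plain CPM, a pseudocount of 0.1, no filter, summed UMIs, cells with at least 1000 genes, Krt13 boundaries of 2 and 4, thinning to 2000 UMIs or not at all, the replicate block and leaving out each library. The block in the interaction, and leaving out libraries for Capns2 and Ces1h within layers, were chosen after seeing the data.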

Additional observations from a re-analysis of the deposited data

Results flagged for a closer look

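Among the marker genes measured beside the metallothioneins, 2 suprabasal markers had a layer difference that differed between the groups in limma's interaction test, which called 28 of 12138 genes. Tgm3, a transglutaminase of the cornified envelope, had a smaller layer difference in Cyto-ID High, by -1.68 ± 0.17 on the log2 scale (SE, adjusted p = 0.0018). It was at 6.33 ± 2.90 and 149.7 ± 86.1 CPM below and above the Krt13 boundary in Cyto-ID Low (SD, n = 3), and Cyto-ID High had 20.9 ± 2.38 and 144 ± 33.5 CPM. Sbsn, which encodes suprabasin, had a larger one, by 1.07 ± 0.18 (SE, limma adjusted p = 0.034). It was at 19.2 ± 3.44 and 22.2 ± 4.53 CPM in Cyto-ID Low (SD, n = 3), and Cyto-ID High had 40.6 ± 11.6 and 104.8 ± 15.2 CPM. Tgm3 passed in 6 of 6 fits that left out a library and under each other setting but no filter (adjusted p = 0.51). Sbsn passed in 3 of 6 such fits, and of the other settings with plain CPM (adjusted p = 0.010) and the replicate label as a block (0.0015). Elsewhere the values were 0.51 with no filter, 0.071 with a pseudocount of 0.1, 0.054 with summed UMIs, 0.056 with 1000 genes, and 0.079 and 0.14 with Krt13 boundaries of 2 and 4. Without Cyto-ID Low F6, Cyto-ID High F2 or Cyto-ID High F6 they were 0.12, 0.051 and 0.14.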

How the results depend on the processing

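The differences of all 4 members between the founder groups kept their direction under every setting run. Leaving out single libraries gave log2 differences over all cells of 0.83 to 1.55 for Mt1, 1.19 to 2.23 for Mt2, 4.13 to 4.81 for Mt3 and 5.23 to 7.31 for Mt4, and Mt3 moved to 6.18 over all cells and 6.31 below the boundary with a pseudocount of 0.1. The replicate block left the members' log2 differences as they were and raised the count of genes called from 20 to 68 over all cells, from 27 to 81 below the Krt13 boundary and from 23 to 86 above it. In the interaction, a fit chosen after seeing the data, it raised the count from 28 to 277, which held all 28, and Mt1 then passed (0.54, adjusted p = 0.010).

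The founder counts were small and unstable. Over all cells the count was 5 with a pseudocount of 0.1, 0 with no filter (1343 genes at an unadjusted limma p under 0.05), 12 with summed UMIs, 13 with cells of at least 1000 genes, and 3 to 20 when single libraries were left out. Below the boundary it was 2 with no filter, 16 with 1000 genes and 6 to 28 without single libraries. Above it, it was 6 with a pseudocount of 0.1, 1 with no filter and 0 to 29 without single libraries, with 0 without Cyto-ID High F6 (465 at an unadjusted p under 0.05). Among neighbours, Capns2 did not pass with no filter (adjusted p = 0.093), and Ces1h did not with no filter (0.23) or a pseudocount of 0.1 (0.064).

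The layer count was 7261 and 6523 to 7090 without single libraries. The 28 interaction calls became 7 with a pseudocount of 0.1, 0 with no filter (1384 unadjusted), 2 with 1000 genes, 14 and 8 with boundaries of 2 and 4, and 6 to 111 without single libraries, the highest without Cyto-ID Low M3.

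Layer differences of Mt2 and Mt4 passed under every setting, at -1.17 to -0.94 and 1.48 to 1.94 without single libraries. The Mt1 difference did not pass with no filter (-0.49, adjusted p = 0.14) or a boundary of 2 (-0.28, adjusted p = 0.056), and ran from -0.62 to -0.28 without single libraries. The pooled layer value of Mt3, which has few UMIs in Cyto-ID Low and is not read as a test, was -0.22, -0.48 with plain CPM, and -0.36 to -0.12 without single libraries. For shares, the Mt4 difference was 2.90 percentage points at 2000 UMIs and 2.61 at a boundary of 2, not passing, beside 3.06. The Mt2 difference in cycling cells was 0.39 with 2 of 3 genes. With 5 libraries the sign-flip test cannot go under 0.0625, so only sizes were compared there.

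In Cyto-ID Low, Mt3 had 59, 18 and 0 UMIs in F2, M3 and F6, which limits what can be read of its layers there.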
